A study of Homo sapiens with 6 samples.

Results

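DZNep (3-deazaneplanocin A) was compared with solvent in OVCAR8 cells, a cell line from high-grade serous ovarian cancer, by RNA sequencing. The comparison rests on 4 of the 6 samples of the series: 2 replicates of control cells, which received DMSO, and 2 replicates of cells that received DZNep, all collected after 72 hours. The labels give the DZNep dose as 5 mM, whereas the methods of the study give 5 μM, so the unit differs between the sources. The remaining 2 samples, in which a doxycycline-induced hairpin silenced EZH2, belong to another condition and entered only as an alternative fit. The methods state that RNA came from OVCAR8 cells and from OVCAR8 cells carrying the hairpin, but do not say which of these served as controls. All samples come from 1 cell line, and nothing states whether the 2 replicates of a group were separate cultures, so the p-values measure only the spread between these samples, which may be technical.

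The table holds 1 whole number per gene and sample for 14930 genes. A gene was taken into the comparison when it had a value of 10 or more in 2 or more of the 4 samples, which 9537 genes met. Just inside this limit were 1147 genes that reached 10 in exactly 2 samples, and just outside it were 639 genes that reached it in 1 sample. The columns of the 4 samples sum to between 999956 and 1000022, so the values had been scaled to a common total and are not reads. The depth behind a value is therefore unknown, no counting interval could be given, and values are compared between samples and not between genes. Each fold change below is a difference of log2(value + 1) after a further scaling between samples, DZNep minus control, with its standard error (SE) from 2 samples a group, and it understates the change of genes with low values. A gene is described as higher or lower only when its adjusted p-value, from limma with Benjamini-Hochberg adjustment over the 9537 genes, was under 0.05.

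DZNep inhibits S-adenosylhomocysteine hydrolase, the enzyme encoded by AHCY. Its substrate is left behind by every methyl transfer from S-adenosylmethionine and inhibits methyltransferases when it accumulates. DZNep is also known to lower the EZH2 protein, the enzyme of the Polycomb complex PRC2, which places repressive methyl marks on lysine 27 of histone H3. Because methyl groups are used on DNA, histones, RNA and lipids, the agent reaches many processes besides PRC2.

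Of the epithelial keratins by which such cells are known, KRT7 was listed at 597 and 499 in the control samples and at 585 and 503 with DZNep. KRT8 and KRT18, the pair of keratins of simple epithelia, were present in all 4 samples and are described below. MSLN, the surface protein mesothelin of serous tumours, was at 176 and 150 in controls and at 45 and 36 with DZNep. Other markers of serous ovarian epithelium were low in all 4 samples. PAX8 had values of 17 and 19 in controls and 10 and 13 with DZNep, EPCAM did not exceed 12 in any sample, and WT1 did not exceed 2. CDH1 was at 1 and 0 in controls and at 7 and 8 with DZNep, and MUC16 and MECOM were not listed. The sum over 3 listed immune markers lay between 66 and 72 in controls and between 20 and 23 with DZNep and was almost wholly CD68, which tumour cells can also express. The sum over 2 listed endothelial markers did not exceed 4 in any sample. The sum over 5 listed markers of fibroblasts or mesothelium lay between 34 and 35 in controls and between 55 and 75 with DZNep. Within it PDGFRB was at 12 and 11 against 56 and 42, and COL1A1 at 13 and 16 against 12 and 9.

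In most genes the DZNep values lay outside the control values. After scaling, both DZNep values lay above both control values in 3451 genes (36.2%) and below them in 2826 (29.6%), and in 3260 the groups overlapped, so 65.8% of the genes did not overlap between the groups. In limma, 1596 genes were higher with DZNep (16.7% of those tested) and 1389 were lower (14.6%). With an added threshold of 2-fold, 1053 genes were higher (11.0%) and 1058 were lower (11.1%). The median log2 fold change over all genes was 0.04 and the median absolute change was 0.53.

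The replicate numbers were taken as pairs, and the 2 pairs gave nearly the same picture. The change of DZNep 1 over control 1 and that of DZNep 2 over control 2 had a correlation of 0.954 across genes, as a description, since genes are not independent replicates. The sign was the same in both pairs for 8556 genes (89.7%). It was also the same for 2111 of the 2111 genes called at 2-fold. These were selected on the same 4 samples for a large change with a small spread, so their agreement adds no support. With the replicate number as a block in the fit, 3646 genes were higher (38.2%) and 3338 were lower (35.0%), and none of the calls of the fit without the block was lost.

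**Figure D1:**
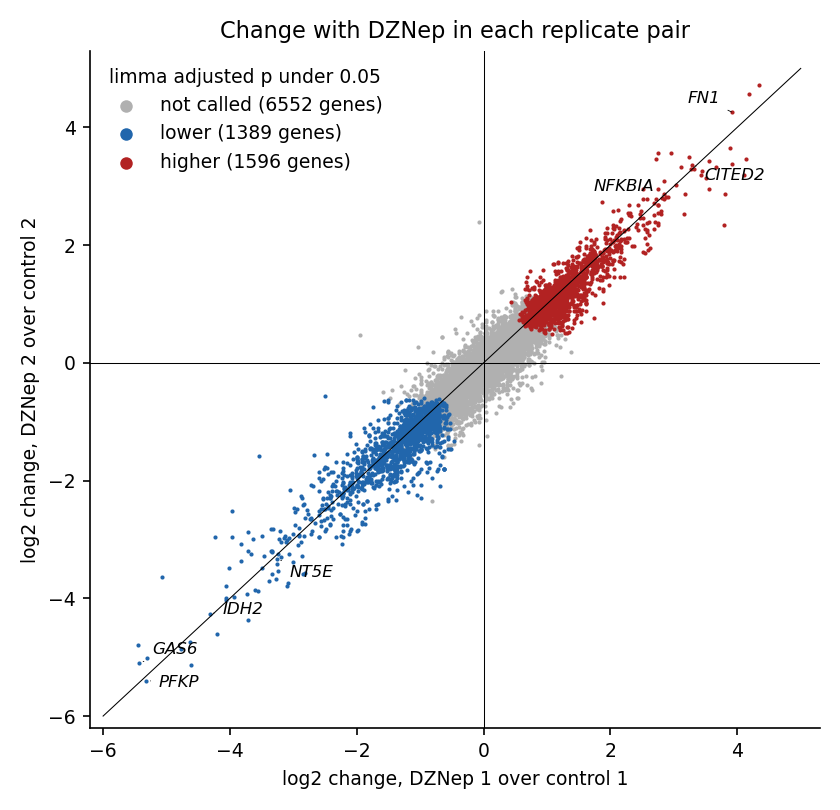
Each point is 1 of 9537 genes, with its log2 change in the first replicate pair on the x axis and in the second pair on the y axis; red and blue points are the 1596 genes higher and the 1389 genes lower with DZNep at a limma adjusted p under 0.05, and grey points were not called. The points follow the diagonal line of equal change, from PFKP and GAS6 at the lower left to FN1 at the upper right.

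The largest falls among well-expressed genes covered glycolysis, lipid metabolism, growth factor signalling and the cell surface. PFKP, the platelet-type isoform of phosphofructokinase (chr10:3066333-3137718 of GRCh38, plus strand), was listed at 2969 and 2509 in the controls and at 72 and 64 with DZNep. GAS6, the secreted ligand of the TAM family of receptor tyrosine kinases (chr13:113820549-113864076, minus strand), went from 392 and 316 to 8 and 9. These are log2 fold changes of -5.36 ± 0.24 for PFKP and -5.26 ± 0.24 for GAS6, each with a limma adjusted p of 3.3e-05. LMF1, which is needed for the folding of lipases, had values of 118 and 91 in controls and of 2 in both DZNep samples. In KLHL35, a kelch-like protein gene, they were 136 and 108 against 4 and 3. CHMP3, a subunit of the ESCRT-III membrane scission machinery, had 110 and 135 against 5 in both. For these genes, as for the rest of this paragraph, the groups were far apart compared with the distance between replicates.

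MGMT, which removes alkyl groups from guanine in DNA, fell from 122 and 101 to 7 and 6 (log2 fold change -3.95 ± 0.28, limma adjusted p 9.9e-05). IDH2, the mitochondrial NADP-dependent isocitrate dehydrogenase, was at 283 and 229 in controls and at 13 and 12 with DZNep. NT5E, the surface enzyme that makes adenosine from AMP outside the cell, was at 847 and 1135 in controls and at 86 and 122 with DZNep, a log2 fold change of -3.30 ± 0.23. The others among the 15 largest falls were RHPN1, ACSF3, GPC1, HIST3H2BB, C7orf50, FADS1 and FADS2. ACSF3 encodes the mitochondrial malonyl-CoA synthetase, and GPC1 the heparan sulfate proteoglycan glypican-1. Their log2 fold changes lay between -4.04 for RHPN1 and -3.28 for C7orf50.

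Among the largest rises, genes of the matrix and of signalling at the cell surface stood first. FN1, which encodes fibronectin (chr2:215360440-215436073, minus strand), was listed at 36 and 25 in controls and at 546 and 544 with DZNep, a log2 fold change of 4.09 ± 0.26 (limma adjusted p 6.6e-05). THBS1, the matrix glycoprotein thrombospondin-1, went from 46 and 45 to 443 and 493. EPHA2, an ephrin receptor kinase, went from 37 and 31 to 305 and 283. CITED2, a coregulator that binds the CBP and p300 acetyltransferases, was at 33 and 31 in controls and at 323 and 358 with DZNep (log2 fold change 3.32 ± 0.22). The 4 genes had no overlap between the groups, which the rule that named them required.

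Secreted and stress-related genes made up much of the rest. ADM, the vasodilator peptide adrenomedullin, was at 66 and 60 in controls and at 422 and 436 with DZNep. STC2, a secreted glycoprotein of the stress response, was at 103 and 93 against 561 and 590. PTX3, a soluble pattern recognition protein, had 14 and 15 against 87 and 120. GABARAPL1, which is attached to autophagosome membranes, had 27 and 26 against 183 and 227. GDA, the guanine deaminase of purine breakdown, had 13 and 16 against 96 and 128. The remaining members of the 15 largest rises were NFKBIA, TRMT61A, INF2, VARS2, ISG15 and RAP1GAP2, with log2 fold changes between 2.48 for RAP1GAP2 and 2.85 for NFKBIA. All 30 of these largest rises and falls kept their call in every alternative fit, also with any 1 sample left out.

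**Figure D2:**
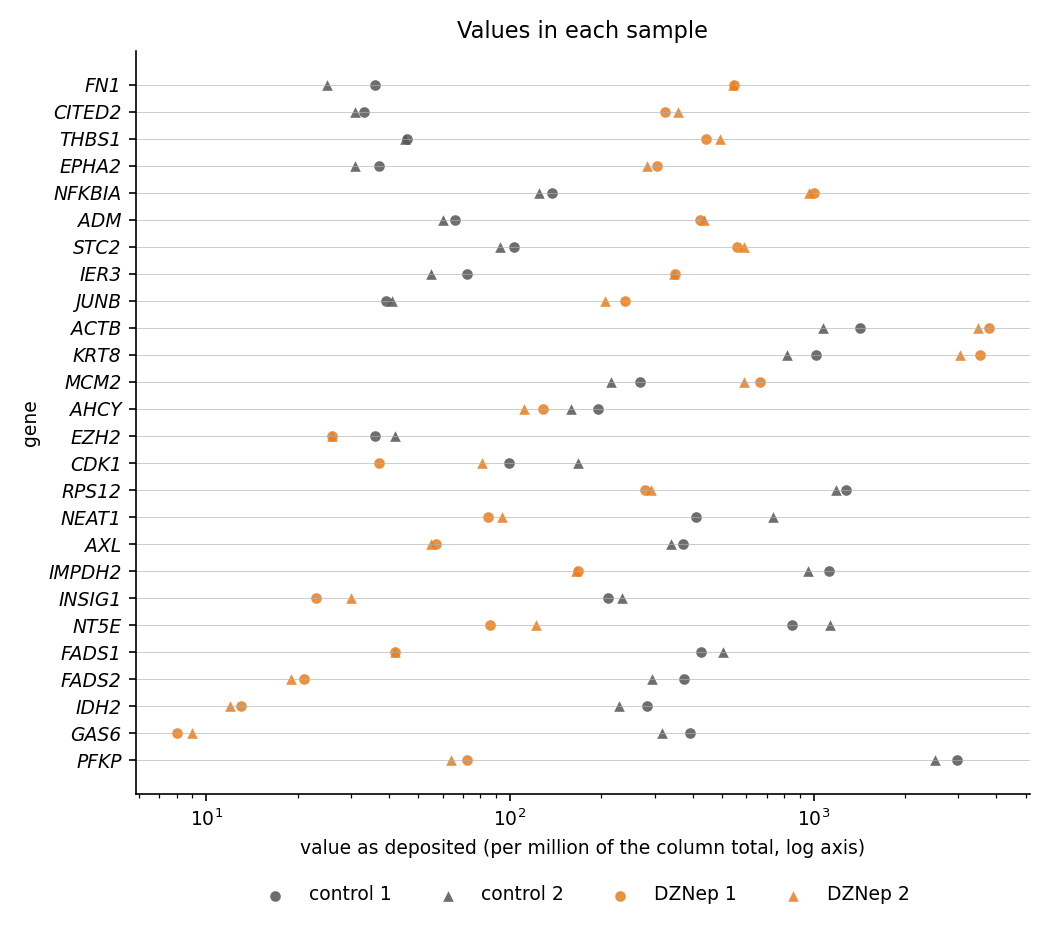
The deposited value of 26 genes (y axis) is plotted for each of the 4 samples on a log axis (x axis, scaled to a common column total), with controls in grey, DZNep in orange, circles for replicate 1 and triangles for replicate 2. From PFKP, listed at 2969 and 2509 in controls and at 72 and 64 with DZNep, the rows run to FN1, whose DZNep values of 546 and 544 lie above its control values of 36 and 25.

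PRC2 is the complex that DZNep is best known for lowering. In limma without the block, 1 of the 12 tested PRC2 genes was lower (8.33%, against 14.6% of all genes) and none was higher. PHF1, an accessory subunit that brings PRC2 to chromatin, fell from 85 and 74 to 24 and 21 (log2 fold change -1.82 ± 0.26, limma adjusted p 0.0016). EZH2 itself was at 36 and 42 in controls and at 26 in both DZNep samples, and its change of -0.61 ± 0.25 had a limma adjusted p of 0.093, 5.1e-05 with the replicate block and 0.025 with all 6 samples in the fit. For EZH1, the paralog of EZH2, the values were 20 and 29 against 17 and 15. EED, which reads the methyl mark, was at 37 and 50 in both groups. SUZ12, the scaffold subunit, had 15 and 31 against 12 and 24, so its replicates lay further apart than its groups, but it fell in each pair. Its limma adjusted p was 0.47, and 0.019 with the replicate block. With the block, 7 of the 12 genes were lower and 2 were higher (35.0% and 38.2% over all genes).

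AHCY, the direct target of the agent, was at 195 and 159 in controls and at 129 and 111 with DZNep. Its groups did not overlap, but its change of -0.60 ± 0.25 passed with the block but not without it (limma adjusted p 0.10 without and 4.3e-08 with it). Around it, in the list of methionine cycle, methyl transfer and polyamine genes, 3 of 21 were higher (14.3%, against 16.7% of all genes). In this list 6 were lower (28.6%, against 14.6%). With the block 9 were higher and 7 were lower (38.2% and 35.0% over all genes). Without control 2, 1 member was higher. PEMT, which uses S-adenosylmethionine to make phosphatidylcholine, fell from 86 and 68 to 12 and 9 (log2 fold change -2.81 ± 0.30, limma adjusted p 0.00047). ADK, which clears the adenosine that AHCY releases, fell from 168 and 211 to 57 and 85. MTR, the methionine synthase, was at 56 and 98 against 23 and 33, a call that was lost on the values as deposited and without control 2. SAT1, the first enzyme of polyamine breakdown, rose from 224 in both controls to 692 and 841 with DZNep (1.71 ± 0.20). ODC1, which starts polyamine synthesis, was at 178 and 172 against 345 and 373, a call lost without control 2 or without DZNep 1.

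Enzymes that methylate or demethylate DNA and RNA moved in 1 direction where they were called. Of 14 tested, 5 were higher (35.7%, against 16.7% of all genes) and none was lower, with a median log2 fold change of 0.37. TRMT61A, the catalytic subunit of the transfer RNA adenosine methyltransferase (chr14:103529196-103537073), was at 16 and 14 in controls and at 114 and 97 with DZNep (log2 fold change 2.68 ± 0.27, limma adjusted p 0.00034). DNMT1, the maintenance DNA methyltransferase, did not pass, with 219 and 232 against 252 and 244. UHRF1, which recruits DNMT1 to replicated DNA, was at 140 and 148 against 264 and 303, but its call was lost when any 1 sample was left out. Without control 2, TRMT61A was the only member still called higher. With the block, 7 were higher and 2 were lower.

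Genes of the NF-kB pathway were mostly higher, a share of rises passed among the lists plotted only by the mitochondrial genome, where 10 of 12 genes were higher (83.3%). NF-kB is a transcription factor that is held in the cytoplasm by inhibitors such as the product of NFKBIA, and it turns on cytokines, chemokines and its own inhibitors. Its sites carry the letters GGG and TTCC separated by 3 bases of any kind, which were searched on both strands in the promoters that RefSeq (GRCh38.p14) gives for 7679 of the tested genes, from 250 bases before to 50 after the start. They were found in 11 of the 22 list members with a promoter (50%) and in 7.67% of all 7679 promoters. Since the members were picked as known targets, this share describes the list and not the response. The 150 bases before the start site of 2 members, NFKBIA and CXCL1, are printed because these genes were among the highest rises of the list, with the matching letters in capitals.
NFKBIA (chr14:35404750-35404899, minus strand): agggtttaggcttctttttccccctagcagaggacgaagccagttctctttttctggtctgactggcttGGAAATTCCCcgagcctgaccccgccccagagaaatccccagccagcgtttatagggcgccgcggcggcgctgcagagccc
CXCL1 (chr4:73869243-73869392, plus strand): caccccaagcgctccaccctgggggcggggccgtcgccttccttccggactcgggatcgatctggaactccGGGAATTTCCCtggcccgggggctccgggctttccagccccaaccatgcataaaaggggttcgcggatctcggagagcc
Shorter windows show the same letters, with 10 bases on each side, in further members that were called higher. They were chosen after their values were seen.
TNFAIP3 (chr6:137867182-137867211, plus strand): acgtgactttGGAAAGTCCCgtggaaatcc
BIRC3 (chr11:102317275-102317304, plus strand): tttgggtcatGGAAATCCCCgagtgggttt
CXCL5 (chr4:73998749-73998778, minus strand): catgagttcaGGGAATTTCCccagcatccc
CXCL2 (chr4:74099254-74099283, minus strand): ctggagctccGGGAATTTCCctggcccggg
CCL20 (chr2:227813753-227813782, plus strand): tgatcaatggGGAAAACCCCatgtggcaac
IL6 (chr7:22727117-22727146, plus strand): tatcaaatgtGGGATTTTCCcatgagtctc
IL32 (chr16:3065294-3065323, plus strand): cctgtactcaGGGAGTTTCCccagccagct
The letters alone did not set a direction. The tested genes with them in the promoter had a median log2 fold change of 0.09 and those without them 0.03, and NFKB1 and NFKBIZ carry them without a call.

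In the NF-kB list, 22 of 28 genes were higher (78.6%, against 16.7% of all genes) and 1 was lower, with a median log2 fold change of 1.21. In 26 of the 28 both DZNep values lay above both control values after scaling, as in 36.2% of all genes. NFKBIA, the inhibitor (chr14:35401079-35404749), rose from 138 and 125 to 1006 and 968, a log2 fold change of 2.85 ± 0.22 (limma adjusted p 0.00014). TNFAIP3, a deubiquitinase that also restrains the pathway, had values of 4 and 2 in controls and of 45 and 36 with DZNep. The cytokine TNF had 6 and 3 against 44 and 47, and the chemokine CXCL1 had 2 and 3 against 33 in both. These low control values make the size of the fold uncertain, but not the separation of the groups. ICAM1, an adhesion molecule for leukocytes, rose from 119 and 96 to 344 and 277 (1.47 ± 0.26).

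Other members of the list moved less. The neutrophil chemokine CXCL8 was at 52 and 71 against 88 and 131, and IL6 at 28 and 32 against 57 and 55, both called. RELB and NFKB2, subunits of the non-canonical branch, rose from 25 and 20 to 63 and 59 and from 62 and 47 to 111 and 110. RELA, the main activating subunit, was at 19 and 15 against 28 and 24 and was not called. The exception was IL18, a cytokine made as an inactive precursor, which fell from 231 and 289 to 72 and 107 (log2 fold change -1.60 ± 0.23, limma adjusted p 0.0016). With 1 sample left out at a time, between 15 and 17 members were higher, fewest without control 2. IL6, CXCL8, RELB, NFKB2, RELA and the members shown above by sequence were named after their values were seen.

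The immediate early genes and AP-1 factors, which respond within minutes to growth and stress signals in most cells, were mostly higher after these 72 hours. Of 23 tested, 13 were higher (56.5%, against 16.7% of all genes) and 1 was lower (4.35%, against 14.6%), with a median of 0.90. With the block 19 were higher and 1 was lower (38.2% and 35.0% over all genes). JUNB, an AP-1 subunit, rose from 39 and 41 to 239 and 205 (log2 fold change 2.39 ± 0.24, limma adjusted p 0.00036). IER3, an early gene that modulates cell survival, rose from 72 and 55 to 350 and 348, and KLF10, a zinc finger repressor, from 6 and 4 to 21 and 25. JUN was at 329 and 390 against 456 and 500 and was called with the block but not without it. FOS, the partner of the JUN proteins, went the other way, from 18 and 19 to 3 in both samples (-2.33 ± 0.26, limma adjusted p 0.00053).

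Targets of YAP and SRF, which respond to cell shape and to the actin cytoskeleton, were higher more often than lower. Of 31 tested, 17 were higher (54.8%, against 16.7% of all genes) and 4 were lower (12.9%, against 14.6%), with a median of 0.78. With the block 23 were higher and 4 were lower (38.2% and 35.0% over all genes). ACTB, which encodes beta-actin and is often used as a reference gene, was at 1422 and 1076 in controls and at 3786 and 3481 with DZNep (log2 fold change 1.50 ± 0.26, limma adjusted p 0.0036). ANKRD1, a nuclear protein induced by stretch, rose from 248 and 305 to 976 and 1442. The actin-binding proteins TAGLN and CNN2 rose from 15 and 12 to 74 and 58 and from 13 and 11 to 56 and 48. CNN1, a close relative of CNN2, fell from 28 and 21 to 4 and 5. AXL, the receptor for GAS6, fell from 371 and 338 to 57 and 55 (-2.69 ± 0.23, limma adjusted p 0.00017), so both the ligand and the receptor were lower. With 1 sample left out at a time, between 10 and 11 members were higher, fewest without control 2, and between 2 and 4 lower, fewest without control 1.

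KRT8 and KRT18, which form 1 filament together, rose side by side. KRT8 went from 1021 and 816 to 3540 and 3046 (log2 fold change 1.80 ± 0.26, limma adjusted p 0.0016), and KRT18 from 1392 and 1080 to 4398 and 3793 (1.69 ± 0.27, adjusted p 0.0024). Among 13 tested junction and keratin genes, 5 were higher (38.5%, against 16.7% of all genes) and 1 was lower (7.69%, against 14.6%). With the block 7 were higher and 3 were lower (38.2% and 35.0% over all genes). The mesenchymal list of 16 genes was divided, with 4 higher (25%) and 3 lower (18.8%), or 6 each with the block, and a median of 0. VIM, the intermediate filament of mesenchymal cells, was at 2442 and 2693 against 1972 and 2075 and was called with the block but not without it. LGALS1, a secreted lectin, fell from 2329 and 1742 to 867 and 707, and TGFB2, a growth factor, was at 1 and 2 against 12 and 18.

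Matrix genes were called often in both directions. Of 35 tested, 13 were higher (37.1%, against 16.7% of all genes) and 8 were lower (22.9%, against 14.6%). The median was 0.19, or 0.06 with length and GC content corrected for, when 15 were higher and 16 lower. Besides FN1 and THBS1, the collagenase MMP1 rose from 556 and 585 to 1870 and 2481 (log2 fold change 1.87 ± 0.21, limma adjusted p 0.00059). LAMB3, a chain of laminin-332, rose from 95 and 76 to 422 and 357, and TGFBI from 297 and 239 to 677 and 676. Falls were found for the membrane-bound protease MMP14, from 189 and 163 to 44 and 40 (-2.09 ± 0.24, limma adjusted p 0.00068), and for the collagen genes COL13A1, from 31 and 33 to 5 in both, and COL18A1, from 65 in both to 19 and 16. COL4A2, a collagen of basement membranes, was at 553 and 537 against 547 and 525, with overlap between the groups. With the block 17 matrix genes were higher and 13 were lower (38.2% and 35.0% over all genes).

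Integrins and their partners were called equally in both directions. Of 27 tested, 6 were higher and 6 were lower (22.2% each, against 16.7% and 14.6% of all genes). With the block 13 were higher and 8 were lower (38.2% and 35.0% over all genes). ITGB4, the integrin subunit of hemidesmosomes, fell from 27 and 23 to 1 and 2 (log2 fold change -3.45 ± 0.28, limma adjusted p 0.00016). The proteoglycan SDC1 fell from 229 and 196 to 70 and 60, and the collagen-binding subunit gene ITGA1 from 12 and 25 to 3 and 6, although that call was lost on the values as deposited. The talin gene TLN2, whose product links integrins to actin, rose from 17 and 15 to 77 and 81 (2.19 ± 0.25), and ACTN1, an actin crosslinker, from 309 and 266 to 648 and 685, a call lost without control 2. FLNA, a further actin crosslinker, was at 1445 and 1194 against 1609 and 1290.

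Receptors and growth factors were another divided group, with 5 of 30 higher (16.7%, the same share as among all genes) and 8 lower (26.7%, against 14.6%). With the block 13 were higher and 9 were lower (38.2% and 35.0% over all genes), so the excess of falls was not seen in that fit. Without control 1, 3 were higher and 5 were lower. Beside GAS6 and AXL, EGFR fell from 83 and 107 to 21 and 17 (log2 fold change -2.31 ± 0.27, limma adjusted p 0.00070). HBEGF, a ligand of EGFR, rose from 18 and 20 to 51 and 54 (1.37 ± 0.24, adjusted p 0.0041), and PDGFRB, a receptor for platelet-derived growth factor, from 12 and 11 to 56 and 42. In the Wnt and Notch list, 5 of 20 were higher (25%, against 16.7% of all genes) and 2 were lower (10%, against 14.6%). With the block these counts were 11 and 4. The Wnt ligand WNT5B fell from 77 and 66 to 8 in both. The Wnt antagonist DKK1 rose from 55 and 63 to 254 and 329, the Wnt receptor FZD4 from 7 and 12 to 28 and 32, and the Notch ligand JAG1 from 5 and 4 to 25 and 28. ID3, an inhibitor of helix-loop-helix factors, was at 4 and 5 in controls and at 85 and 71 with DZNep (3.80 ± 0.28, limma adjusted p 0.00012).

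Antigen presentation by MHC class I was higher where it was called. Of 16 tested genes, 7 were higher (43.8%, against 16.7% of all genes) and none was lower (against 14.6%), with a median of 0.69. PSMB8, a subunit of the immunoproteasome, rose from 47 and 37 to 115 and 103 (log2 fold change 1.31 ± 0.26, limma adjusted p 0.0065). HLA-B, a class I heavy chain, was at 842 and 730 against 1644 and 1562, and its call was lost without control 2 or without DZNep 1. Reads of HLA genes can be split among near-identical copies. Without control 2, 1 member was higher, and with length and GC content of the transcripts corrected for, the median was 0.33. With the block, 13 were higher and none was lower (38.2% and 35.0% over all genes).

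The interferon-response list, whose promoters share with the MHC class I list 2 copies of the letters TTTC separated by 2 bases of any kind (in 73.7% and 58.3% of members with a promoter, against 2.60% of all), did not move as 1 group. Of 25 tested, 4 were higher (16%, against 16.7% of all genes) and 6 were lower (24%, against 14.6%), with a median of 0.20. With the block 10 were higher and 8 were lower (38.2% and 35.0% over all genes). ISG15, a ubiquitin-like modifier, rose from 72 and 65 to 437 and 376 (log2 fold change 2.50 ± 0.24, limma adjusted p 0.00028). IRF1, a transcription factor of the response, rose from 38 and 29 to 140 and 118, and IFIT2, an RNA-binding effector, from 2 and 4 to 32 and 47. On the other side, ISG20, an exonuclease, fell from 24 and 20 to 6 in both, and IFITM1, a membrane protein that blocks viral entry, from 24 and 19 to 7 in both (-1.53 ± 0.28, adjusted p 0.0044).

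**Figure D3:**
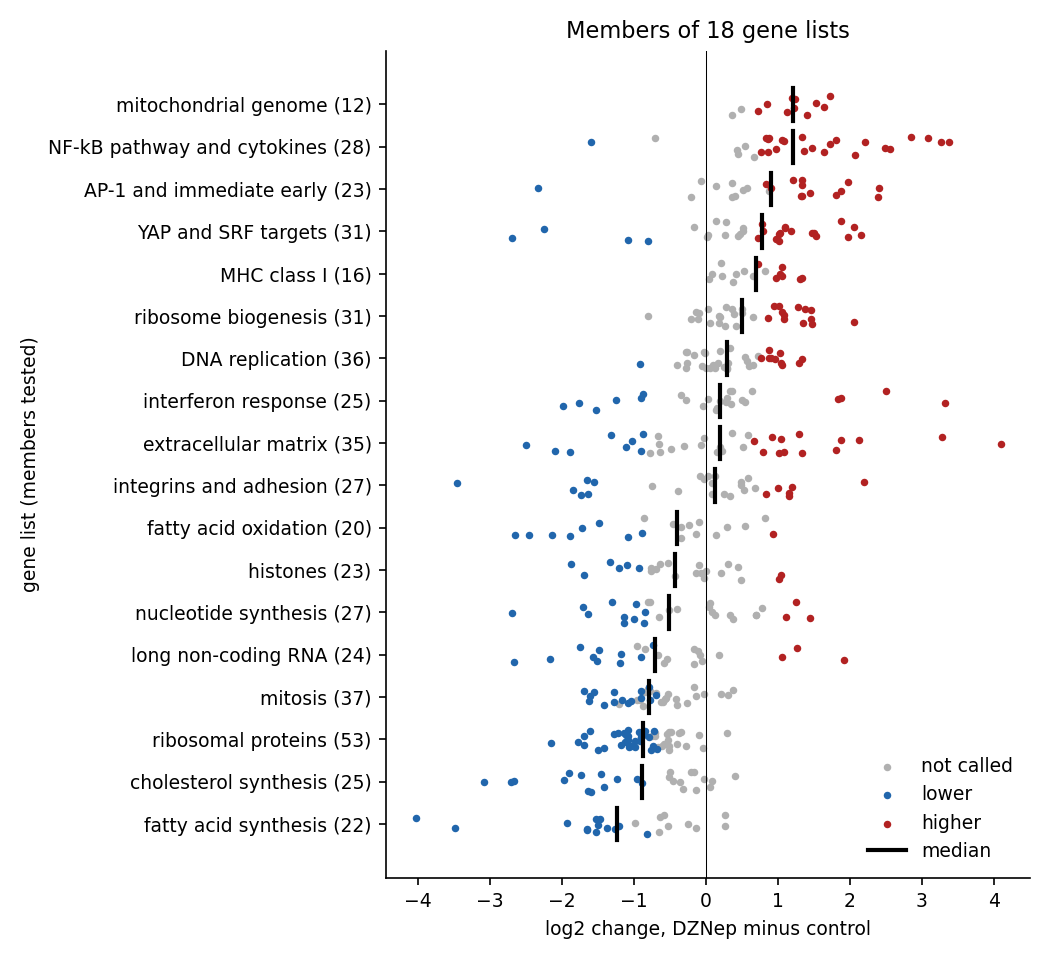
The log2 change of every tested member (x axis, DZNep minus control) is shown for 18 gene lists (y axis, with the number of members tested), in red where higher, blue where lower and grey where not called by limma, with a black bar at the median. The lists are ordered by median, from fatty acid synthesis at -1.23 to the mitochondrial genome and the NF-kB list at 1.21.

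Fatty acid synthesis had the lowest median of the 18 lists plotted. Of 22 tested genes, 13 were lower (59.1%, against 14.6% of all genes) and none was higher, with a median of -1.23. The desaturases FADS1 and FADS2, which make polyunsaturated fatty acids, lie side by side on chromosome 11 (chr11:61799627-61829318 on the minus strand and chr11:61792980-61867354 on the plus strand). FADS1 fell from 425 and 502 to 42 in both samples, and FADS2 from 374 and 294 to 21 and 19, log2 fold changes of -3.48 ± 0.22 and -4.03 ± 0.26, each with a limma adjusted p of 6.6e-05. As annotated, the genes overlap on opposite strands, and whether strand was used in the quantification is not stated in the sources used here. SCD, the desaturase that makes monounsaturated fatty acids, fell from 303 and 311 to 75 and 91. FASN, the fatty acid synthase, and SREBF1, the transcription factor over this pathway, were also lower, at 191 and 124 against 61 and 53 and at 40 and 43 against 13 in both. Both were named after their values were seen. ACLY, which supplies cytosolic acetyl-CoA, was at 505 and 494 against 420 and 449 and passed with the block but not without it. With any 1 sample left out, between 10 and 13 members were lower.

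Cholesterol synthesis and uptake genes gave a like count. Of 25 tested, 13 were lower (52%, against 14.6% of all genes) and none was higher (against 16.7%), with a median of -0.89. INSIG1, which retains the sterol sensor in the endoplasmic reticulum, fell from 211 and 234 to 23 and 30 (log2 fold change -3.08 ± 0.22, limma adjusted p 0.00010). IDI1, an isomerase of the isoprenoid steps, fell from 200 and 301 to 28 and 55. SREBF2, the transcription factor over this pathway, was at 47 and 46 against 49 and 45, while SREBF1 of the previous list was lower. SREBF2 was named after its values were seen.

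Genes that burn fatty acids were also lower more often than higher, with 8 of 20 lower (40%, against 14.6% of all genes) and 1 higher. Their median was -0.40, and with the block 13 were lower and 4 were higher. CPT2, which brings acyl groups into mitochondria, fell from 48 and 41 to 6 and 7 (log2 fold change -2.65 ± 0.26, limma adjusted p 0.00034). HADH, a dehydrogenase of the cycle, fell from 55 and 58 to 12 and 8. ETFB, an electron carrier of the same pathway, fell from 112 and 100 to 25 and 23. Nucleotide synthesis showed 10 of 27 lower (37%) and 3 higher, or 15 and 8 with the block. IMPDH2, which controls guanine nucleotide synthesis, fell from 1128 and 958 to 167 and 165 (-2.69 ± 0.23, limma adjusted p 0.00017), and RRM1, the large subunit of ribonucleotide reductase, from 143 and 198 to 41 and 75. The pyrimidine enzymes CTPS1 and UMPS rose, from 123 and 115 to 331 and 342 and from 38 and 39 to 88 and 105. CTPS2, a paralog of CTPS1, fell from 22 and 25 to 5 and 9. Without control 2, 4 of the nucleotide genes were lower.

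In the pentose phosphate list, PGLS, the lactonase of the oxidative branch, fell from 102 and 78 to 7 and 8 (log2 fold change -3.46 ± 0.27, limma adjusted p 0.00014). H6PD, which runs the first steps inside the endoplasmic reticulum, fell from 22 and 24 to 5 and 3. In the glycolysis list, SLC2A3, a glucose transporter, rose from 51 and 52 to 135 and 146 (1.38 ± 0.22, adjusted p 0.0025), against falls of PFKP and of the liver-type isoform PFKL, from 149 and 117 to 43 and 41. Of 28 glycolysis genes, 5 were higher (17.9%, against 16.7% of all genes) and 2 were lower (7.14%, against 14.6%). With the block these counts were 15 and 7 (38.2% and 35.0% over all genes). In the serine and one-carbon list, 3 of 11 were lower (27.3%, against 14.6% of all genes) and none was higher. With the block 5 were lower and 2 were higher. PHGDH, the first enzyme of serine synthesis, fell from 469 and 359 to 176 and 139, and ALDH1L2, a mitochondrial folate enzyme, from 20 and 35 to 4 and 6.

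The 2 sides of making a ribosome moved apart. Of 53 ribosomal protein genes, 33 were lower (62.3%, against 14.6% of all genes) and none was higher (against 16.7%), with a median of -0.87. With the block 50 were lower and 1 was higher (35.0% and 38.2% over all genes). They made up 11.8% and 10.8% of the column totals in controls and 6.57% and 6.43% with DZNep. RPS12 fell from 1275 and 1182 to 279 and 292 (log2 fold change -2.15 ± 0.21, limma adjusted p 0.00033), RPL31 from 1452 and 1586 to 427 and 551, and RPS29 from 828 and 630 to 236 and 203. RPS2 was at 4648 and 4088 against 3740 and 3137 and RPL8 at 4807 and 4327 against 4056 and 3299, neither called without the block. These genes have many processed copies in the genome among which reads can be split. Leaving out 1 sample at a time gave between 12 and 27 lower, fewest without control 1.

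Genes for assembling ribosomes in the nucleolus were higher where called without the block. Of 31 tested, 13 were higher (41.9%, against 16.7% of all genes) and none was lower (against 14.6%), with a median of 0.50. NOP2, a ribosomal RNA methyltransferase, rose from 37 and 30 to 153 and 142 (log2 fold change 2.06 ± 0.25, limma adjusted p 0.00081). RRP12, an export factor of ribosomal subunits, rose from 35 and 24 to 92 and 79, and MYC, the transcription factor that drives this programme and is kept in the list, from 73 and 69 to 201 and 207 (1.46 ± 0.22, adjusted p 0.0020). NPM1, the main granular protein of the nucleolus, was at 1143 and 1791 against 631 and 1140, so that the lower control nearly met the higher DZNep sample. It was not called in the fit of the 4 samples without the block and was lower with it, as it was with all 6 samples in the fit, with median-ratio scaling, without control 1 and without DZNep 2. With the block, 22 were higher and 2 were lower, and without control 2, 6 were higher. Mitochondrial ribosome genes, taken by their symbols, had a median of 0.57 for the 47 MRPL genes, of which 13 were higher and none was lower, and of 0.50 for the 29 MRPS genes, of which 10 were higher and 2 were lower. With the block, 37 MRPL genes were higher and 6 lower, and 17 MRPS genes were higher and 7 lower. Over all genes, 38.2% were higher and 35.0% lower with the block.

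The cell cycle lists also went apart. Of 36 genes of DNA replication, 10 were higher (27.8%, against 16.7% of all genes) and 1 was lower (2.78%, against 14.6%), with a median of 0.30. With the block, 20 replication genes were higher and 5 were lower (38.2% and 35.0% over all genes). Of 37 genes of mitosis, 15 were lower (40.5%, against 14.6% of all genes) and none was higher, with a median of -0.79. MCM2, a subunit of the replicative helicase, rose from 269 and 216 to 668 and 592 (log2 fold change 1.33 ± 0.25, limma adjusted p 0.0048), and FEN1, the flap nuclease of the lagging strand, from 111 in both to 269 and 298. CDT1, which loads the helicase, was at 33 and 28 against 73 and 61, a call lost without control 2 or without DZNep 1. MCM7 and MCM4, other subunits of the helicase, were at 345 and 269 against 337 and 341 and at 286 and 315 against 343 and 429 and were not called. Without control 2, 2 replication genes were higher, and the median after correction for length and GC content was 0.19.

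Among mitotic genes, KIF20A, a kinesin of the dividing midzone, fell from 288 and 269 to 84 and 103 (log2 fold change -1.62 ± 0.21, limma adjusted p 0.0011). DLGAP5, a spindle protein, fell from 70 and 165 to 22 and 52, although its control replicates lay more than 2-fold apart, its adjusted p was 0.017 and its call was lost on the values as deposited. CCNB1, the mitotic cyclin, was at 500 and 511 against 326 and 406. It was not called in the fit of the 4 samples without the block, and was lower with the block and with all 6 samples in the fit. TPX2, a spindle assembly factor, was at 325 and 379 against 249 and 304. With the block, 31 of the 37 were lower and 3 were higher, and with 1 sample left out between 6 and 21 were lower, fewest without control 2. In the list of cyclins and their inhibitors, 1 of 21 was higher (4.76%, against 16.7% of all genes) and 4 were lower (19%, against 14.6%). With the block 5 were higher and 11 were lower (38.2% and 35.0% over all genes). CCND1, the cyclin of early G1, rose from 131 and 140 to 382 and 330 (1.33 ± 0.23, limma adjusted p 0.0037). CDKN1B, an inhibitor of cyclin-dependent kinases, fell from 67 and 92 to 19 and 31. E2F5 fell from 17 and 18 to 3 and 6. CCNE2, another cyclin gene, fell from 12 and 19 to 5 and 10, a call lost in some alternative fits.

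The 2 lists carry different letters before their start sites, which are printed for members that were called, chosen after their values were seen. The letters TTTGAA on either strand, known as the cell cycle homology region (CHR), were found in 21 of 30 mitosis promoters (70%), in none of 30 replication promoters and in 9.23% of all. The E2F letters TTTCCCGC or TTTGGCGC were found in 2 of the 30 mitosis promoters, in 14 of the 30 replication promoters (46.7%) and in 4.09% of all. Capitals mark the CHR and the CCAAT letters in CCNB2, the CHR in the next 4 lines and the E2F letters in the last 3.
CCNB2 (chr15:59104996-59105145, plus strand): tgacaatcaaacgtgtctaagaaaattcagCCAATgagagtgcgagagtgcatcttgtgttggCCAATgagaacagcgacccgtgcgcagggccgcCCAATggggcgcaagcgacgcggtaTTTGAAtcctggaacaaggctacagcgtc
CDK1 (chr10:60778160-60778185, plus strand): gtataataaaTTTGAActgtgccaat
BUB1B (chr15:40161036-40161061, plus strand): gaccgttaaaTTTGAAacttggcggc
KIF23 (chr15:69414284-69414309, plus strand): gattggcccgTTTGAAatgcgccagg
PRC1 (chr15:90994540-90994565, minus strand): cgtggcgcggTTTGAAattttgcggg
GINS2 (chr16:85688955-85689104, minus strand): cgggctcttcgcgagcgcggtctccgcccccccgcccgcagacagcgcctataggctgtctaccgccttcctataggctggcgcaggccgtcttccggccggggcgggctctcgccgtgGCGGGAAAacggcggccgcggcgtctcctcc
CDT1 (chr16:88803744-88803771, plus strand): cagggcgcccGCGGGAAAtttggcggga
MCM3 (chr6:52284899-52284926, minus strand): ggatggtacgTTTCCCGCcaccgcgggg
CCNB2 fell from 98 and 108 to 41 and 54 and CDK1, the kinase of mitotic entry, from 99 and 167 to 37 and 81. GINS2, a subunit of the helicase complex, rose from 44 and 36 to 88 and 82. Over all tested promoters the letters went with small differences. Genes with CHR and CCAAT letters together had a median log2 fold change of -0.20 (329 genes, of which 12.8% were higher and 16.4% were lower), against 0.04 for the rest, and genes with E2F letters had 0.01 against 0.03.

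**Figure D4:**
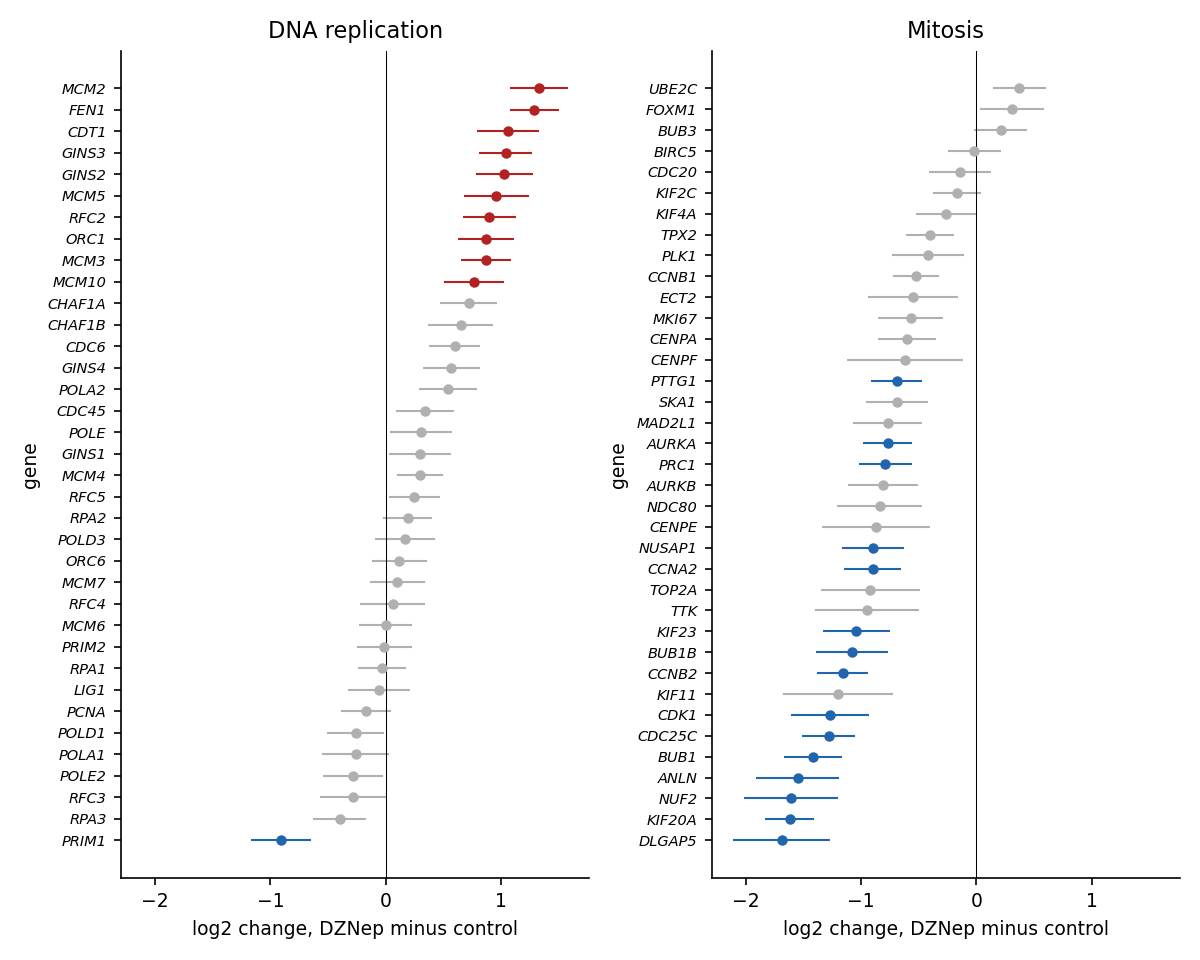
Each point is a gene (y axis) of the DNA replication list (left) or the mitosis list (right) with its log2 change, DZNep minus control (x axis), and the standard error as a bar; red is higher, blue is lower and grey is not called by limma. In the replication list 10 of 36 genes are red and 1 is blue, and in the mitosis list 15 of 37 are blue and none is red.

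Histone genes were lower more often than higher. In the histone list, 6 of 23 were lower (26.1%, against 14.6% of all genes) and 2 were higher (8.7%, against 16.7%), with a median of -0.43. With the block 12 were lower and 6 were higher (35.0% and 38.2% over all genes). The 62 tested genes whose symbols begin with HIST, a group that leaves out other histone genes, had a lower median of -0.80. Of these, 28 were lower and 1 was higher, and with the block 51 were lower and 4 were higher. HIST2H2BE fell from 364 and 296 to 101 and 84 (log2 fold change -1.87 ± 0.26, limma adjusted p 0.0013) and HIST2H2AC from 110 and 88 to 34 and 28. HIST1H1C, a linker histone gene, was at 1169 and 878 against 518 and 393, a call lost without control 1 or without DZNep 2. The linker histone genes H1F0 and H1FX, which lie outside the clusters, rose from 158 and 167 to 328 and 366 and from 108 and 101 to 240 and 198. The H1F0 call was lost without control 1, and that of H1FX without control 2 or without DZNep 1. Clustered histone genes are near-identical copies, so how the reads were split among them is uncertain.

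Long non-coding RNAs of the list were lower more often than higher, with 10 of 24 lower (41.7%, against 14.6% of all genes), 3 higher and a median of -0.70. With the block 17 were lower and 3 were higher. The lean was that of the list and not of the class. Over all 125 tested genes annotated as long non-coding RNA, 32 were higher (25.6%) and 29 were lower (23.2%), with a median of -0.05. NEAT1, the scaffold of paraspeckles, fell from 411 and 737 to 85 and 94 (log2 fold change -2.66 ± 0.27, limma adjusted p 0.00038). MALAT1, another abundant nuclear RNA, was at 1845 and 4435 in controls and at 973 and 1760 with DZNep. Its controls lay more than 2-fold apart, and its adjusted p of 0.045 did not hold on the values as deposited, without control 2 or without DZNep 1, among others. The hosts of small nucleolar RNAs divided, with SNHG6 falling from 189 and 212 to 41 and 51 and SNHG8 from 96 and 85 to 28 and 26, while SNHG15 rose from 38 and 29 to 143 and 124 (1.92 ± 0.27, adjusted p 0.0015).

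Stress pathways gave no common direction. Of 19 p53 targets, 7 were higher (36.8%, against 16.7% of all genes) and 1 was lower (5.26%, against 14.6%). With the block 10 were higher and 5 were lower (38.2% and 35.0% over all genes), so this list held more rises than falls in both fits. GADD45B and GADD45A, stress-response proteins that also respond to other signals than p53, rose from 36 and 28 to 149 and 152 and from 95 and 118 to 245 and 293 (log2 fold changes 2.16 ± 0.25 and 1.28 ± 0.21, limma adjusted p 0.00063 and 0.0031). CDKN1A, the best known p53 target, was at 37 and 27 against 18 and 20, and was lower with the block but not without it. It was named after its values were seen. In the amino acid response, 5 of 20 were higher (25%, against 16.7% of all genes) and 2 were lower (10%, against 14.6%). With the block these counts were 9 and 6. Without control 1, 3 were higher and 1 was lower. SLC3A2, a subunit of amino acid transporters, rose from 193 and 162 to 575 and 504, and ASNS, the asparagine synthetase, fell from 68 and 72 to 29 and 31 (-1.24 ± 0.23, adjusted p 0.0051). Among heat shock genes, HSPD1 of the mitochondrial chaperonin fell from 235 and 368 to 85 and 143, a call lost on the values as deposited, and the cochaperone BAG3 rose from 6 and 5 to 18 and 16.

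The share of genes called moved with the base composition of their transcripts. In the quintile of genes with the lowest GC content, 2.92% were higher and 13.6% were lower with DZNep, with a median log2 fold change of -0.31. In the next to highest quintile, 25.2% were higher and 12.4% were lower, with a median of 0.32. The same property moved with the distance between the control samples, where the median of control 1 minus control 2 ran from -0.55 in the lowest quintile to 0.32 in the highest. When transcript length and GC content were corrected for in the blocked fit, 3331 genes were higher and 3289 were lower, and 2980 of the 2985 calls remained. The medians were then -1.06 for cholesterol synthesis, -1.03 for fatty acid synthesis, -0.92 for ribosomal proteins, -0.69 for mitosis, 0.88 for AP-1 and immediate early genes and 1.15 for the NF-kB list. Other list medians moved by more than 1.5 times. They went from 0.19 to 0.06 for the matrix, from 0.20 to 0.10 for the interferon response, from 0.23 to 0.07 for receptors, from 0.26 to 0.06 for glycolysis, from 0.17 to 0.02 for the methionine cycle and from 0 to 0.19 for the mesenchymal list. Those of PRC2 (-0.34 to -0.18), fatty acid oxidation (-0.40 to -0.61) and serine and one-carbon genes (-0.18 to -0.55) stayed below 0, and that of the amino acid response turned from 0.07 to -0.09.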

How the data were processed

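RNA from control and DZNep-treated OVCAR8 cells was sequenced as stranded libraries after removal of ribosomal RNA. Per the labels, the authors used fastp, STAR and RSEM with GRCh38. The deposited score per gene and sample is a whole number, and since each column sums to nearly the same total, it was read as a value the authors had scaled and rounded and not as a read count; the scaling step is not given in the sources used here, and a count test like that of the study was replaced. Here the values were scaled by TMM factors without weights (trimming 30% of log ratios and 5% of means, factors 0.935 to 1.11) and tested on log2(value + 1) with limma 3.58.1 in R 4.3.3 (lmFit and eBayes with a trend, two-sided). Only the 4 samples entered. An exact permutation test of 2 against 2 samples cannot go below p = 0.333.

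The pairing comes from the replicate numbers, and the labels do not say what a number marks. As a check, the difference between replicates in controls and in DZNep samples had a correlation of 0.795 across genes. A fit that blocked on the number was an alternative.

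Gene lists and members were chosen with earlier results of these data known. Named genes were the 15 largest rises and falls (2-fold, mean of 50 or more, groups apart), up to 3 rises, 3 falls and 3 highest values of each list, and EZH2, EED, SUZ12, EZH1 and AHCY; exceptions are marked in the text. Symbols were matched to GENCODE v44 (GRCh38), the source of gene coordinates, and length and GC content were found for 98.6% of tested genes. Promoter sequences are from RefSeq (GRCh38.p14). Scripts were tested on simulated data. Alternatives were other scalings, pseudocounts, filters, samples, the block, a length and GC correction, limma without a trend, unadjusted p, and each sample left out. Figures were drawn with matplotlib 3.10.9. Some genes are not reported here.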

Additional observations from a re-analysis of the deposited data

How the results depend on the processing

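With the replicate number as a block, 3646 genes were higher and 3338 lower, and after a length and GC correction in that fit 3331 and 3289, against 1596 and 1389 without it. The block changed the direction of no called gene. With 1 sample left out, the lone sample being assumed to vary like the other group, 613 to 1282 genes were higher and 856 to 1439 lower, and at 2-fold 613 to 1243 were higher and 856 to 1409 lower. The lowest counts came without control 2 (613 higher and 856 lower), followed for rises by the fit without DZNep 1 (859 higher), and between 1440 and 2285 of the 2985 calls remained. None of the 2985 calls changed sign under any alternative. Scaling moved the balance. Rises made up 53.5% of calls, 63.3% on the values as deposited (1662 higher, 962 lower) and 47.3% with median-ratio scaling, and at 2-fold 49.9% against 39.6% after the length and GC correction. At an unadjusted p under 0.05, 2227 genes were higher and 1916 lower. Of 223 named genes that were called, 187 kept the call in every alternative that left no sample out, and 140 also with any 1 sample left out. Some named genes with a change above 0 and no call were called lower in the blocked, corrected fit. They were PHF19 (-0.21), OAZ1 (-0.23), ENO1 (-0.23), CCT3 (-0.26), ATP5B (-0.34), MCM7 (-0.27), CDKN2A (-0.29) and PRAME (-0.38). Of these, OAZ1 and ENO1 were called higher with the block alone. Others, such as DNMT1 (-0.16) and TALDO1 (-0.16), turned negative in the corrected fit without a call there. The unknown depth and 2 samples a group limit what a missing call shows.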

Other observations

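There were 75 groups of genes that share the letters of their symbol, taken without regard to function. The highest medians were those of the TIMM, DUSP and KCTD genes. Of the TIMM genes, subunits of the import machinery of the inner mitochondrial membrane, 12 were tested. Among them 6 were higher and none lower, or 8 and none with the replicate block, with a median log2 fold change of 0.76. Of 14 DUSP genes, phosphatases of which many act on MAP kinases, 7 were higher and none lower (median 0.73). With the block, 11 DUSP genes were higher and 2 lower. Some DUSP genes, among them DUSP1, are also in the immediate early list above. Of 12 KCTD genes, many of them adaptors of ubiquitin ligases, 6 were higher and 1 lower (median 0.65). With the block, 7 KCTD genes were higher and 2 lower. Among all genes 16.7% were higher and 14.6% lower, or 38.2% and 35.0% with the block. The ZNF genes, most of them zinc finger repressors, had 37 of 187 higher, a share near that of all genes, and 7 lower, with a median of 0.27, and 93 higher and 36 lower with the replicate block. Among the ALDH genes, aldehyde dehydrogenases, 6 of 13 were lower and 1 was higher, with a median of -0.61, or 8 and 4 with the block. The RBM genes, RNA-binding proteins, had 7 of 28 higher and none lower, with a median of 0.36, but 17 higher and 4 lower with the block. These groups were chosen after their values were seen.

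Genes listed near 0 in controls and high with DZNep lay outside the rule for named genes and were chosen after their values were seen. OLR1, a scavenger receptor for oxidized lipoprotein, was listed at 1 in both controls and at 38 and 57 with DZNep, and C8orf4 (current symbol TCIM) at 0 in both controls and at 16 and 25 with DZNep. In the opposite direction TEX19, a gene otherwise active in germ cells, was listed at 31 and 23 in controls and at 0 and 1 with DZNep.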
